A study of Sus scrofa with 9 samples.

Results

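Heart RNA from miniature pigs given doxorubicin plus formononetin (3 libraries) was compared with heart RNA from pigs given vehicle (3 libraries). The members were all genes of the deposited count table in those 6 of the 9 libraries of the series, chosen by the treatment named in the labels. The other 3 libraries, from pigs given doxorubicin alone, are quoted beside the results. All pigs (Sus scrofa) were labelled WT in genotype and the tissue was labelled heart. Doses, sampling times, age, sex and heart chamber were not stated in the sources used here. The labels also do not say whether the 3 libraries of each treatment were taken from different animals. P-values therefore cover the spread between these libraries only, and that spread may be technical.

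Doxorubicin is an anthracycline used against cancer. It poisons topoisomerase II, enters redox cycles and is known for damage to heart muscle, whose mitochondria are among its targets. Formononetin is a plant isoflavone, and the title of the series ties switching on the estrogen-related receptor alpha (ERR-alpha, gene ESRRA) to less of that damage and to mitochondrial metabolism. ERR-alpha is an orphan nuclear receptor. With the PGC-1 coactivators (PPARGC1A and PPARGC1B) it drives genes for fatty acid oxidation, the TCA cycle and the respiratory chain, which supply most of the ATP of the beating heart. The comparison described here asks how far hearts that received both compounds stood from hearts given vehicle.

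Expression levels are in CPM, that is counts after scaling each library to a common total with its TMM factor, and values of 3 libraries are given in the order of replicates 1 to 3. Library totals ran from 16291952 to 17549359 counts. All 10 cardiomyocyte markers were detected in the 6 libraries. The summed level of these markers was 69700 to 77600 CPM with vehicle and 61600 to 64500 CPM with doxorubicin plus formononetin, and none of the 10 passed the test described next. In bulk tissue, fewer cells of a type and less RNA per cell cannot be told apart. The fast skeletal muscle genes MYH4 and TNNT3 had 0 counts in all 6 libraries. Replicate 2 of the doxorubicin plus formononetin group stood apart. It had counts for 14766 genes, against 18107 to 19304 in the other 8 libraries, and 24 of 11102 genes with at least 2 CPM in all others were at 0 in it. Pearson correlations of log2 CPM were 0.981 to 0.984 among vehicle libraries and 0.917 to 0.975 among doxorubicin plus formononetin libraries. Results are therefore given with and without that library.

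The 2 groups were compared gene by gene. Of 14846 genes tested with the edgeR quasi-likelihood test, 262 (1.76%) passed an adjusted p of 0.05, and 2488 had an unadjusted p under 0.05. Among the 262, 142 genes (0.956% of those tested) rose and 120 (0.808%) fell. The calls counted in gene lists below are to be read beside these shares. The change was at least 2-fold for 141 of them. Library values did not overlap between the 2 groups for 3505 genes (23.6%), and 261 of the 262 called genes were among these. The share of calls that were rises was 54.2%, and 34.7% of 300 calls when libraries were scaled by total counts alone. The median log2 fold change of all genes tested was -0.01. For comparison, the doxorubicin plus formononetin libraries differed from the doxorubicin libraries at 4173 genes (28.1%). Doxorubicin against vehicle gave 4947 calls (33.3%). These comparisons share libraries, so their counts are not independent.

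**Figure D1:**
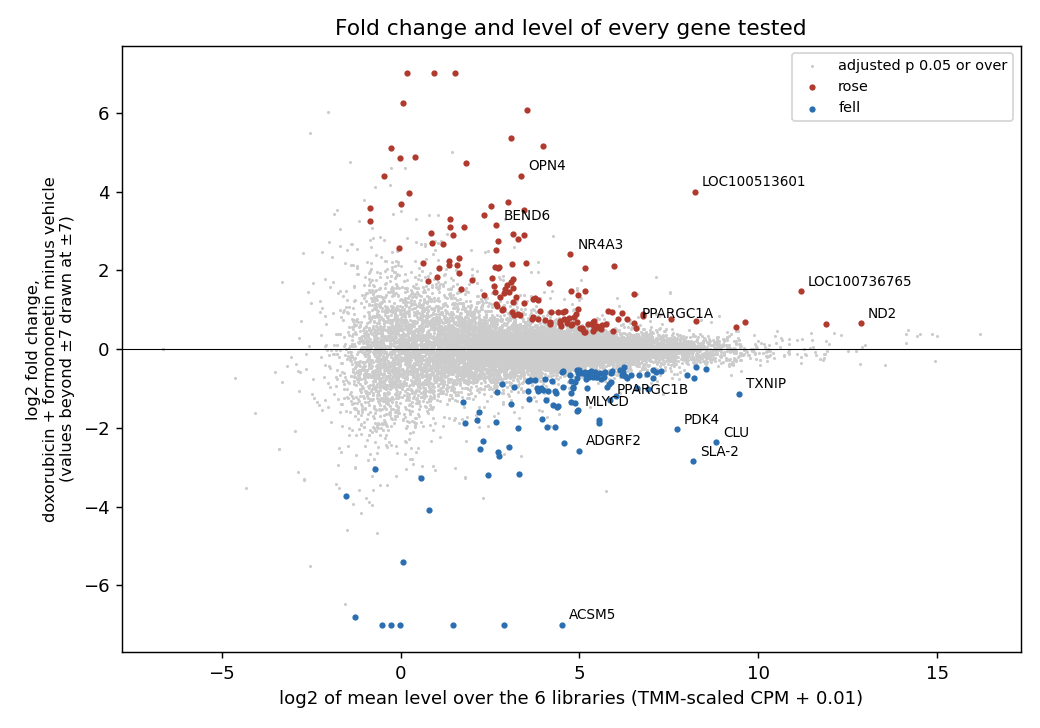
Log2 fold change of doxorubicin plus formononetin against vehicle (vertical axis) for each of the 14846 genes tested, against the log2 mean level over the 6 libraries (horizontal axis). Coloured points are 142 rises and 120 falls, and most genes of high level lie near 0, with SLA-2, CLU, PDK4 and TXNIP among the abundant transcripts that fell.

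The number of calls depended on single libraries. It was 308 without replicate 2 of the doxorubicin plus formononetin group, and 202 of those were among the 262. It was 465 without replicate 3 and 120 without replicate 1 of that group. Leaving out vehicle replicates 1, 2 and 3 left 103, 94 and 64 calls, and leaving out doxorubicin replicates 1, 2 and 3 left 209, 155 and 218. A limma-voom fit that weighted libraries by quality gave replicate 2 of the combined treatment a weight of 0.178 and called 1378 genes, among them 259 of the 262. Of 69 called genes followed through the settings, all kept their direction in the 18 planned settings that held them, and 24 kept their call in each. Called genes first named in the closing observations, and the class I locus without a symbol, were not followed.

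Among genes with a symbol and at least 5 CPM in the higher group, the 12 largest rises included genes for a photopigment, a calcium channel subunit and receptors. OPN4, which encodes the photopigment melanopsin, stood at 0.842, 1.02 and 0.892 CPM with vehicle and at 29.4, 25.6 and 3.80 CPM with doxorubicin plus formononetin, a log2 fold change of 4.41 ± 0.68 (SE) (adjusted p = 0.00914, edgeR). In the doxorubicin libraries it stood at 5.46, 11.2 and 13.3 CPM, so every treated library lay above every vehicle library. CACNA2D3, an auxiliary subunit of voltage-gated calcium channels, stood at 0.361, 1.62 and 1.39 CPM with vehicle and 16.4, 17.8 and 10.9 CPM with the combination (3.73 ± 0.49, adjusted p = 0.00343). Levels of ADRA1B, the alpha-1B adrenergic receptor through which noradrenaline acts on cardiomyocytes, were 1.74, 3.78 and 1.73 CPM with vehicle and 17.2, 23.4 and 10.2 CPM with the combination. ADRA1B changed by 2.81 ± 0.36 (adjusted p = 0.00296), and its doxorubicin libraries, at 6.23, 6.22 and 6.70 CPM, lay between the other groups. NR4A3, an orphan nuclear receptor of the immediate early class, stood at 5.17, 11.1 and 9.09 CPM with vehicle and 57.4, 52.98 and 24.5 CPM with the combination (2.41 ± 0.35, adjusted p = 0.00673). The third replicate was the lowest of the combination group for OPN4, CACNA2D3, ADRA1B and NR4A3.

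The other large rises were those of BEND6, IL20RA, FHL5, MAP3K15 and INMT. BEND6, a nuclear protein with a BEN domain, rose from 1.44, 1.14 and 1.28 to 14.3, 12.2 and 7.87 CPM (3.15 ± 0.28). IL20RA, a receptor subunit for interleukin 20 family cytokines, changed by 3.11 ± 0.40. FHL5, a LIM-domain coactivator, changed by 2.75 ± 0.49, with its highest value, 18.3 CPM, in replicate 2 of the combination. Levels of MAP3K15, a stress-activated kinase, were 1.56, 1.80 and 2.29 CPM with vehicle and 10.3, 10.8 and 11.4 CPM with the combination (2.51 ± 0.21). MAP3K15 lies on the X chromosome across the gene of the abundant pyruvate dehydrogenase subunit PDHA1 on the other strand, and since the handling of strand in the counting is not given, reads of the 2 cannot be told apart. INMT, an N-methyltransferase of indoleamines, changed by 2.32 ± 0.49. The calls of BEND6 and MAP3K15 were kept in every planned setting. The call of OPN4 was lost without vehicle replicate 3 (adjusted p = 0.0645) and in both limma-voom fits (0.0508 with quality weights). For FHL5 and INMT the call was lost without single vehicle libraries, and for INMT also without replicate 1 or 2 of the combination (highest adjusted p = 0.109 and 0.182).

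The largest fall by the same rule was that of ACSM5, a member of the mitochondrial medium-chain acyl-CoA synthetase family (chromosome 3, 25393121 to 25422551, assembly Sscrofa11.1). It had 888, 794 and 619 counts with vehicle and 406, 495 and 460 counts with doxorubicin, and 0 counts in each of the 3 doxorubicin plus formononetin libraries. Against a floor of 3 counts per library it was at least 246-fold lower than with vehicle, where the floor covers counting error only. CLU, the secreted chaperone clusterin, stood at 742, 748 and 787 CPM with vehicle, 245, 199 and 296 CPM with doxorubicin and 148, 164 and 131 CPM with the combination. The fall against vehicle was -2.36 ± 0.15 on the log2 scale (adjusted p = 1.19e-05), and the 3 groups did not overlap. ADGRF2, an adhesion G protein-coupled receptor, stood at 52.4, 50.2 and 59.8 CPM with vehicle and 13.4, 6.82 and 6.95 CPM with the combination (-2.58 ± 0.22, adjusted p = 1.61e-04). Its doxorubicin libraries, at 65.1, 59.5 and 66.2 CPM, were near those of vehicle.

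Other large falls reached genes of vitamin, metal and nucleotide biology. MT3, a metallothionein that binds zinc and copper, went from 38.5, 44.3 and 36.7 to 8.39, 3.15 and 11.3 CPM (-2.40 ± 0.34). SLC52A3, a riboflavin transporter, changed by -2.48 ± 0.40, a call lost without vehicle replicate 3 (adjusted p = 0.0596). FUOM, which interconverts the anomers of fucose, changed by -2.71 ± 0.28. P2RY1, a receptor for ADP, went from 31.2, 28.1 and 23.0 to 7.24, 7.11 and 6.42 CPM (-1.98 ± 0.22), and FAM210B, a mitochondrial protein, from 85.0, 69.8 and 66.5 to 16.6, 30.7 and 12.8 CPM (-1.87 ± 0.26). EXOSC2, a subunit of the RNA exosome, changed by -1.85 ± 0.36, and C15H2orf54 by -1.87 ± 0.39. The calls of EXOSC2 and C15H2orf54 were lost without any 1 vehicle library and without some others (highest adjusted p = 0.148 and 0.166).

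**Figure D2:**
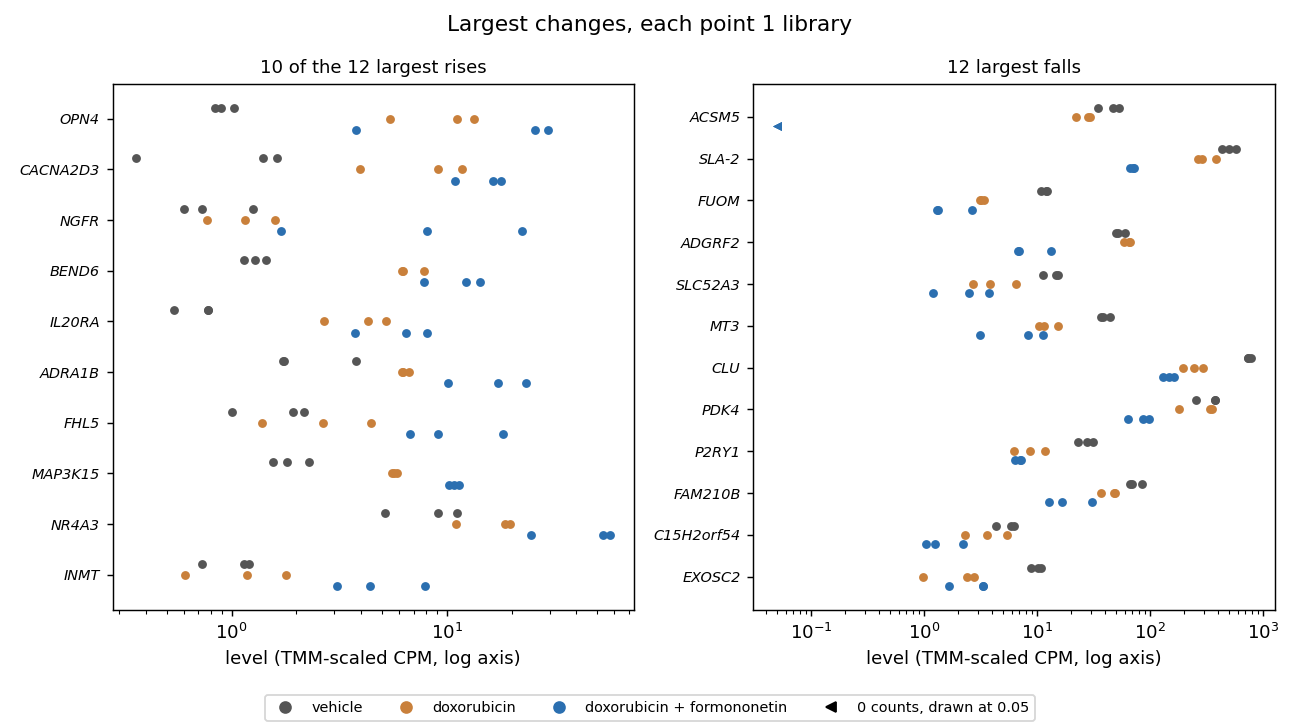
Levels in each library (TMM-scaled CPM, log axis) of 10 of the 12 genes with the largest rises and the 12 with the largest falls against vehicle, with the doxorubicin libraries shown beside them. Each point is 1 library, the triangle marks the 3 libraries in which ACSM5 had 0 counts, and for NGFR replicate 3 of the combination lies close to the vehicle libraries.

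The receptor named in the title did not pass the test against vehicle. ESRRA stood at 199, 167 and 158 CPM with vehicle, 81.3, 96.4 and 95.1 CPM with doxorubicin and 136, 142 and 134 CPM with doxorubicin plus formononetin. The combination libraries lay below all vehicle libraries and above all doxorubicin libraries. Against vehicle the log2 fold change was -0.35 ± 0.11 (adjusted p = 0.156), and against doxorubicin 0.59 ± 0.11 (adjusted p = 0.00354). Its relatives did not pass either. ESRRG, the form most tied to oxidative muscle, was at 39.9, 38.7 and 30.7 CPM with vehicle and 42.9, 48.3 and 51.4 CPM with the combination (adjusted p = 0.181). ESRRB was at 14.9, 11.7 and 12.5 and 9.86, 7.34 and 11.3 CPM (adjusted p = 0.28). PERM1, a muscle cofactor of the PGC-1 and ERR pathway, stood at 152, 141 and 116 CPM with vehicle and 127, 142 and 114 CPM with the combination, which overlapped (adjusted p = 0.767), while its doxorubicin libraries stood at 57.7, 70.25 and 76.8 CPM.

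The 2 PGC-1 coactivators moved in opposite directions. PPARGC1A, the inducible coactivator, rose from 79.4, 67.3 and 68.8 to 110.4, 113 and 117 CPM (0.66 ± 0.10, adjusted p = 0.00899). Its doxorubicin libraries were also above vehicle, at 122.9, 134 and 119 CPM. PPARGC1B, its relative of high basal expression in heart, fell from 78.9, 91.8 and 72.7 to 33.6, 27.3 and 39.1 CPM (-1.28 ± 0.15, adjusted p = 0.00162). The doxorubicin libraries of PPARGC1B lay at 34.6, 34.9 and 28.3 CPM and overlapped with those of the combination. The difference between combination and doxorubicin was -0.15 ± 0.10 for PPARGC1A (adjusted p = 0.304) and 0.03 ± 0.15 for PPARGC1B (adjusted p = 0.894). PPARGC1A and PPARGC1B were the only calls among 31 tested ERR receptors, coactivators and PPAR partners, whose median log2 fold change was 0.00423. The call of PPARGC1A was lost without vehicle replicate 2 or 3 (highest adjusted p = 0.0645), and that of PPARGC1B was kept in every planned setting. Of the estrogen receptors, ESR2 did not pass the filter on low counts, and ESR1 was at 0.421, 0.661 and 0.892 CPM with vehicle and 1.28, 0 and 0.590 CPM with the combination.

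Among genes that steer the choice between glucose and fat as fuel, PDK4 and TXNIP fell and PDK1 rose. PDK4, the kinase that shuts off pyruvate dehydrogenase in fasting (chromosome 9, 75246956 to 75260134), stood at 258, 381 and 379 CPM with vehicle and 63.8, 86.9 and 98.3 CPM with the combination (-2.03 ± 0.26, adjusted p = 0.00296). In the doxorubicin libraries it was at 355, 340.0 and 181 CPM, so the low values were seen in the combination libraries alone (against doxorubicin -1.82 ± 0.26, adjusted p = 6.97e-04). PDK1, another kinase of the same complex and a hypoxia target, rose from 78.1, 77.9 and 73.5 to 157, 138 and 128 CPM (0.88 ± 0.13, adjusted p = 0.0065). TXNIP, which restrains glucose uptake and thioredoxin, stood at 1012, 926 and 942 CPM with vehicle, 729, 725 and 767 CPM with doxorubicin and 395, 401 and 522 CPM with the combination (-1.13 ± 0.12 against vehicle, adjusted p = 7.44e-04). PDK4 and PDK1 were the 2 calls among 37 genes of the TCA cycle and pyruvate dehydrogenase (median log2 fold change 0.141). TXNIP was the 1 call among 35 genes of glucose uptake, glycolysis and glycogen (median 0.0364). The call of PDK1 was lost without vehicle replicate 3 (adjusted p = 0.05). PDK4 overlaps ASB4 on the other strand.

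Fatty acid oxidation genes also went both ways. HADHA and HADHB, the 2 subunits of the trifunctional protein that carries out the last steps of long-chain oxidation, rose together. HADHA went from 540.3, 545 and 519 to 796, 726 and 864 CPM (0.57 ± 0.11, adjusted p = 0.0245) and HADHB from 652, 596 and 583 to 1000.0, 774 and 1173 CPM (0.69 ± 0.14, adjusted p = 0.0372). Both genes were also above vehicle with doxorubicin alone, HADHA at 731, 815 and 902 CPM and HADHB at 1087, 1179 and 1288 CPM. MLYCD, the decarboxylase that removes malonyl-CoA, the brake on mitochondrial fat entry, fell from 47.4, 46.5 and 43.8 to 15.3, 10.1 and 20.9 CPM (-1.57 ± 0.20, adjusted p = 0.00296). CPT1A, the liver form of the carnitine palmitoyltransferase that admits long-chain fatty acids, fell from 37.6, 36.1 and 39.4 to 23.0, 27.6 and 23.5 CPM (-0.61 ± 0.12, adjusted p = 0.027), and its doxorubicin libraries lay at 31.4, 36.7 and 37.5 CPM. These were the 4 calls among 41 genes of fatty acid uptake and oxidation (median log2 fold change 0.0223). HADHA, HADHB and PDK4 were also the 3 calls among 42 tested ERR-alpha targets (median 0.0463). When the same libraries were compared with doxorubicin, 13 of these targets rose and 3 fell (28.1% of all genes were called there). Calls of HADHA, HADHB and CPT1A were lost without any 1 vehicle library, among others (highest adjusted p = 0.148, 0.177 and 0.146), and that of MLYCD was kept in every planned setting.

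**Figure D3:**
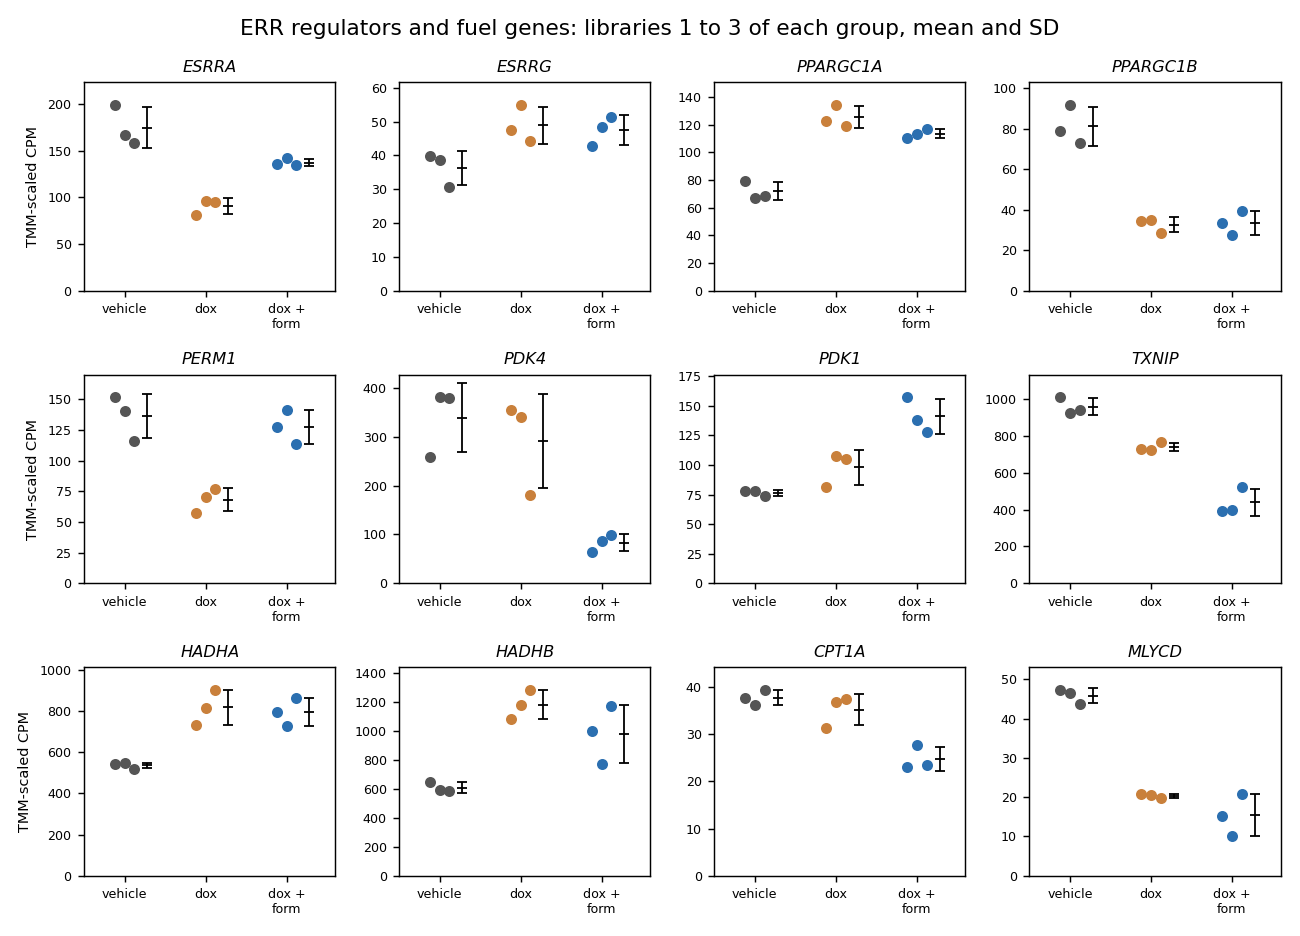
Levels (TMM-scaled CPM, axes from 0) of 12 regulators and fuel genes in the 3 libraries of each group, in the order of replicates 1 to 3, with the group mean and SD (n = 3) in black at the right of each group. PDK4 and TXNIP are lowest with doxorubicin plus formononetin, ESRRA lies between the other groups, and PPARGC1B and MLYCD stay below vehicle in both treated groups.

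The respiratory chain itself gave few calls. None of 48 nuclear complex I genes, 21 genes of complexes II to IV or 19 ATP synthase subunits passed by edgeR. Their median log2 fold changes were 0.00703, 0.0227 and 0.0529. Without replicate 2 of the combination these medians were 0.154, 0.145 and 0.181, again with no call, and that of all genes was -0.00289. For complexes II to IV only 21 of 40 list entries were matched to a gene, so the rest of that list was not examined. Quality-weighted limma-voom called 3, 2 and 1 genes of the 3 lists, all higher. Over all 14846 genes that fit called 1378, of which 708 were higher. Of 13 mitochondrially encoded subunits, ND1 and ND2 of complex I rose. ND1 stood at 3041, 3020.4 and 2825 CPM with vehicle and 4700.4, 3771 and 5389.7 CPM with the combination (0.64 ± 0.13, adjusted p = 0.0311), and ND2 at 5756, 5896 and 5662 and 9233, 7149 and 10963 CPM (0.66 ± 0.14, adjusted p = 0.0372). In both genes replicate 2 was the lowest of its group. Without it 8 of the 13 were called, all higher, against 308 of all 15184 genes tested in that setting. The median log2 fold change of the 13 went from 0.379 to 0.518. Both calls were lost without any 1 vehicle library (highest adjusted p = 0.166 and 0.17). The mitochondrially encoded genes together held 25.7% ± 3.42 (SD, n = 3) of counts with the combination, 21.1% ± 0.296 with vehicle and 23.7% ± 0.604 with doxorubicin. The exact two-sided permutation p against vehicle was 0.1, the smallest that 3 against 3 libraries allow. The difference was 4.60 percentage points, 6.42 points without replicate 2 and 3.02 points without replicate 3 of the combination.

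Mitochondrial transport and translation gave single calls. SLC25A13, the aspartate-glutamate carrier, rose from 18.04, 14.2 and 18.2 to 28.9, 29.0 and 24.6 CPM (0.71 ± 0.13). SLC25A34, a carrier of the same family, fell from 77.1, 76.6 and 65.2 to 36.1, 33.5 and 49.3 CPM (-0.88 ± 0.14), and SLC25A37, the iron importer mitoferrin 1, from 25.1, 29.3 and 28.2 to 18.5, 17.8 and 18.7 CPM (-0.59 ± 0.12). These were the 3 calls among 41 mitochondrial carriers. Of 75 mitochondrial ribosomal proteins only MRPS26 fell (-0.72 ± 0.15, adjusted p = 0.0381), and without replicate 2 of the combination its adjusted p was 0.0661. All 4 calls were lost without at least 1 vehicle library (highest adjusted p from 0.0663 for SLC25A34 to 0.166 for SLC25A37). None of 26 genes of branched-chain amino acid and ketone breakdown, 38 of mitochondrial dynamics, 18 of creatine and nucleotide exchange or 23 of mitochondrial DNA maintenance passed. The quality-weighted fit called 7, 6, 4 and 0 of them higher and 0, 0, 0 and 1 lower, against 1378 calls among all 14846 genes.

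None of NPPB, NPPA and CDKN1A, transcripts that mark heart strain and p53 activity, passed the test against vehicle. NPPB, the B-type natriuretic peptide of strained heart muscle, stood at 0.722, 1.502 and 6.75 CPM with vehicle, 68.9, 65.0 and 66.7 CPM with doxorubicin and 0.547, 0 and 1.70 CPM with the combination. The difference from vehicle was -2.06 ± 0.86 (adjusted p = 0.258), and these groups overlapped. NPPA, the atrial natriuretic peptide, varied widely within each group and did not overlap between them. It was at 40.2, 214 and 42.7 CPM with vehicle and 0.973, 1.72 and 22.2 CPM with the combination (-3.60 ± 1.19, adjusted p = 0.163). Its log2 fold change was -2.33 without vehicle replicate 2 and -6.18 without replicate 3 of the combination, where it passed (adjusted p = 0.0396). NPPA also passed with all 9 libraries when no filter on low counts was used (-3.60, adjusted p = 0.0145). CDKN1A, the p53 target that encodes p21, stood at 15.2, 20.7 and 40.3 CPM with vehicle, 104, 137 and 128 CPM with doxorubicin and 27.4, 16.6 and 19.4 CPM with the combination (adjusted p = 0.698 against vehicle). A p that misses the threshold does not show that levels were the same. Among 30 cardiac stress genes 1 rose, SPP1, the secreted phosphoprotein osteopontin (1.25 ± 0.25, adjusted p = 0.0311), where 12 rose and 3 fell in doxorubicin against vehicle (33.3% of all genes were called there). Levels of SPP1 were 7.58, 9.85 and 8.25 CPM with vehicle and 19.4, 28.8 and 12.8 CPM with the combination. Its call was lost without any 1 vehicle library, without replicate 1 of the combination and by limma-voom, among others (highest adjusted p = 0.159).

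Of 48 p53 targets and DNA damage genes, GADD45B rose and BTG2 fell. GADD45B, a stress sensor, went from 9.98, 10.7 and 11.3 to 18.7, 17.5 and 18.4 CPM (0.77 ± 0.17). BTG2, an antiproliferative p53 target, was at 29.3, 33.5 and 34.4 CPM with vehicle, 67.9, 71.2 and 73.8 CPM with doxorubicin and 19.95, 17.1 and 24.5 CPM with the combination (-0.66 ± 0.13 against vehicle, adjusted p = 0.0337), so that the combination libraries were the lowest of the 9. Both calls were lost without any 1 vehicle library (highest adjusted p = 0.162 and 0.166), and that of BTG2 also without replicate 2 of the combination (0.0526). The topoisomerases that doxorubicin poisons did not pass. TOP2B, the form of non-dividing cells, was at 139, 147 and 145 CPM with vehicle and 125, 118 and 153 CPM with the combination (adjusted p = 0.621), and TOP2A, the form of dividing cells, at 4.51, 2.40 and 3.90 and 5.90, 1.20 and 4.46 CPM (adjusted p = 0.944). POR, the reductase that can reduce doxorubicin by 1 electron, rose from 48.6, 32.1 and 43.9 to 74.9, 86.9 and 75.9 CPM (0.93 ± 0.18). It was the 1 call among 33 genes of topoisomerases and doxorubicin transport and reduction, and its call was lost without vehicle replicate 2 or 3 and without replicate 1 or 2 of the combination, among others (highest adjusted p = 0.119). No gene of 59 in the cell cycle list or of 44 in the list of cell death passed by edgeR. The quality-weighted fit called 2 higher and 1 lower, and 1 and 1, against 1378 calls among all 14846 genes.

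The contractile apparatus held 1 called locus outside the lists. None of 25 sarcomere filament genes passed, with a median log2 fold change of -0.136. Quality-weighted limma-voom called 2 of them lower, against 1378 calls among all 14846 genes. MYH7, the slow beta-myosin heavy chain, stood at 37656, 32886 and 33329 CPM with vehicle and 28233, 26787 and 28464 CPM with the combination (adjusted p = 0.139, and 0.0417 by the quality-weighted fit). It also passed by DESeq2 (adjusted p = 0.0158) and by edgeR with libraries scaled by total counts alone (adjusted p = 0.0163). MYL7, the atrial regulatory light chain, was at 733, 744 and 654 CPM with vehicle, 13.7, 26.8 and 15.1 CPM with doxorubicin and 541, 368 and 708 CPM with the combination (adjusted p = 0.451 against vehicle). The symbol MYH6 was matched to no gene. The locus LOC100736765, annotated as myosin-6 and chosen after its values were seen, rose from 1122, 1640.2 and 954 to 3759.7, 4130.2 and 2359 CPM (1.46 ± 0.24, adjusted p = 0.0108). It was at 276, 382 and 353 CPM with doxorubicin, so that the 3 groups did not overlap and the combination was the highest. Alpha-myosin, which myosin-6 names, is the fast cardiac heavy chain and resembles MYH7 in sequence. The locus lies next to MYH7 on chromosome 7 (75677666 to 75704486), and reads may have been shared between the 2. Its call was lost without vehicle replicate 1 or 3 (highest adjusted p = 0.0645).

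In calcium and adrenergic signalling 3 genes fell beside the rise of ADRA1B. JPH2, the junctophilin that ties the sarcoplasmic reticulum to the T-tubules, fell from 330.2, 325 and 288 to 193, 223 and 177 CPM (-0.67 ± 0.11, adjusted p = 0.0135), and was at 137, 147 and 130.3 CPM with doxorubicin. CAMK2B, a calcium/calmodulin-dependent kinase subunit, fell from 52.97, 49.3 and 46.0 to 25.5, 23.6 and 25.6 CPM (-0.99 ± 0.11, adjusted p = 7.46e-04). They were the 2 calls among 31 genes of calcium release and reuptake. GRK5, a kinase that desensitizes adrenergic receptors, fell from 90.7, 87.6 and 85.5 to 64.9, 66.7 and 61.4 CPM (-0.45 ± 0.09), whereas its doxorubicin libraries stood at 128, 125 and 125 CPM. With ADRA1B it made the 2 calls among 26 genes of renin-angiotensin, adrenergic and neuregulin signalling. CAMK2B kept its call in every planned setting, and the calls of JPH2 and GRK5 were lost without single vehicle libraries, among others (highest adjusted p = 0.0692 and 0.129).

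Of 57 tested interferon-induced genes, 5 rose against vehicle and none fell, where 0.956% of all genes tested rose. The median log2 fold change was 0.367, and for 29 all combination libraries lay above all vehicle libraries, as they did for 10.6% of all genes tested. In doxorubicin against vehicle 50 of the 57 rose, with a median of 1.32 (16.3% of all genes rose), and in the combination against doxorubicin 42 fell (13.5% of all genes). None of the 57 was called without vehicle replicate 2, without vehicle replicate 3 or with only the 2 groups in the fit. Other settings called more of the list. The quality-weighted fit called 13, all higher, against 1378 of all 14846 genes. DESeq2 called 16, against 748 over all genes, and 13 were called without the filter on low counts, against 488. IFI44L stood at 40.3, 34.1 and 42.6 CPM with vehicle, 115, 109.8 and 134 CPM with doxorubicin and 58.3, 61.0 and 60.7 CPM with the combination (0.62 ± 0.12 against vehicle, adjusted p = 0.0239). DDX58, the viral RNA sensor RIG-I, was at 20.6, 16.4 and 21.7, 114, 122 and 141 and 28.8, 30.5 and 34.2 CPM in the same order of groups (0.67 ± 0.13, adjusted p = 0.0311). In both genes the groups did not overlap and the combination lay nearer to vehicle. The antiviral effectors RSAD2 (0.88 ± 0.18) and MX1 (1.03 ± 0.21) and the transcription factor IRF7 (1.15 ± 0.23) were the other calls. Without replicate 2 of the combination 3 members were called, and the adjusted p-values of RSAD2, MX1 and IRF7 were 0.0563, 0.0678 and 0.0553. The adjusted p of OAS2, which makes the activator of RNase L, was 0.0505, and that of HERC6, a ubiquitin ligase, was 0.0515, just above the threshold, and both were called by the quality-weighted fit. All 5 calls were lost without single vehicle libraries (highest adjusted p from 0.105 for IFI44L to 0.166 for IRF7). No gene of 32 in the macrophage list or of 20 in the lymphocyte list passed by edgeR with all libraries. Without replicate 2 of the combination 1 macrophage gene was called, higher. The quality-weighted fit called 3 macrophage genes higher and 1 lower, and no lymphocyte gene. The summed level of 8 macrophage markers was 129 to 228 CPM with vehicle and 182 to 214 CPM with the combination.

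Class I antigen genes of the swine leukocyte antigen (SLA) region changed in both directions. SLA-2 (chromosome 7, 22916747 to 22959405) stood at 578, 432 and 505 CPM with vehicle, 292, 268 and 385 CPM with doxorubicin and 71.1, 66.3 and 72.2 CPM with the combination (-2.85 ± 0.16 against vehicle, adjusted p = 4.69e-06). SLA-8 fell (-1.08 ± 0.16) and SLA-3 rose (1.68 ± 0.22). LOC100513601, a class I locus at 22888616 to 22920154 that overlaps SLA-2 on the same strand and was chosen after its values were seen, stood at 37.0, 25.8 and 42.8 CPM with vehicle, 323, 292 and 428 CPM with doxorubicin and 571, 631 and 482 CPM with the combination (3.996 ± 0.22). LOC100515902, which lies inside the span of SLA-1 and was chosen in the same way, changed by 5.16 ± 0.44. These genes are close copies, so that reads can be shared between them and the counts of each are uncertain. Summed over 11 class I loci of the region the level was 1062, 815.8 and 982 CPM with vehicle and 1062, 1215 and 1051 CPM with the combination (exact two-sided permutation p = 0.2). The groups overlapped in the sum, whereas they did not in SLA-2, SLA-3, SLA-8 and the loci LOC100513601 and LOC100515902. Nor did they in a class I locus without a symbol (22988727 to 23015544), chosen after its values were seen. It rose from 153.6, 119.8 and 144.9 to 233.2, 229.3 and 247.5 CPM (log2 fold change 0.76, adjusted p = 0.0151, edgeR). SLA-1 and SLA-5 did not overlap either but did not pass by edgeR (adjusted p = 0.28 and 0.0751). The quality-weighted limma-voom fit called SLA-1 lower (log2 fold change -1.47, adjusted p = 0.00485). Of all genes tested, 23.6% did not overlap between the groups.

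Among Schwann cell and nerve genes, 2 rose with the combination. Schwann cells wrap peripheral axons, and the heart holds them with its autonomic nerves. Of 18 tested genes of the list, 2 rose and none fell, with a median log2 fold change of 0.70. Of all genes tested, 0.956% rose. NGFR, the low-affinity neurotrophin receptor, stood at 1.26, 0.601 and 0.725 CPM with vehicle and 8.09, 22.4 and 1.70 CPM with the combination (3.63 ± 0.75, adjusted p = 0.0372). Its replicates 1 and 2 were high and replicate 3 was just above vehicle. S100B, a calcium-binding protein of glia, went from 37.5, 29.5 and 28.7 to 49.2, 56.3 and 43.6 CPM (0.64 ± 0.14), while SOX10, the lineage factor of Schwann cells, was at 7.70, 5.59 and 5.69 and 9.73, 20.5 and 7.34 CPM and did not pass (adjusted p = 0.247). The summed level of 4 Schwann cell markers was 104, 103 and 69.5 CPM in replicates 1 to 3 of the combination, 46.9 to 57.7 CPM with vehicle and 35.9 to 51.2 CPM with doxorubicin. Without replicate 2 none of the list was called, with adjusted p = 0.0581 for NGFR and 0.075 for S100B, and log2 fold changes of 2.503 and 0.54. Quality-weighted limma-voom called 6 of the list, against 1378 of all 14846 genes. The call of NGFR was also lost without any 1 vehicle library, and that of S100B without vehicle replicate 2 or 3, among others (highest adjusted p = 0.175 and 0.205).

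Smooth muscle genes showed the same libraries high, with 1 call. MYLK, the myosin light chain kinase, rose from 47.0, 31.9 and 33.9 to 89.9, 78.7 and 50.1 CPM (0.96 ± 0.20, adjusted p = 0.0395), and it alone passed among 24 genes of pericytes and smooth muscle. ACTA2, smooth muscle actin, was at 149.5, 76.2 and 71.0 CPM with vehicle and 395, 337 and 75.8 CPM with the combination (adjusted p = 0.171), and MYH11, the smooth muscle myosin, at 166, 73.1 and 64.1 and 411, 346 and 56.8 CPM (adjusted p = 0.243). In both, replicates 1 and 2 lay above all vehicle libraries and replicate 3 lay within or below their range. The summed level of 8 markers was 1710, 1560 and 893 CPM in replicates 1 to 3 of the combination and 769 to 1080 CPM with vehicle. The part of a different cell make-up of the sampled pieces in these results was not tested. The call of MYLK was lost in 11 of the 18 planned settings, among them without vehicle replicate 2 or 3, without replicate 1 or 2 of the combination, without any 1 doxorubicin library and by limma-voom (highest adjusted p with 1 library left out 0.185). No gene of 46 in the blood endothelium list, 12 in the lymphatic list or 30 in the fibroblast list passed by edgeR with all libraries. Without replicate 2 of the combination 1 gene of each was called, lower in the endothelial lists and higher in the fibroblast list. The quality-weighted fit called 0, 2 and 1 of them higher and 3, 2 and 0 lower, against 1378 of all 14846 genes. The 8 fibroblast markers summed to 4480, 5250 and 2330 CPM with the combination against 2150 to 3800 CPM with vehicle.

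**Figure D4:**
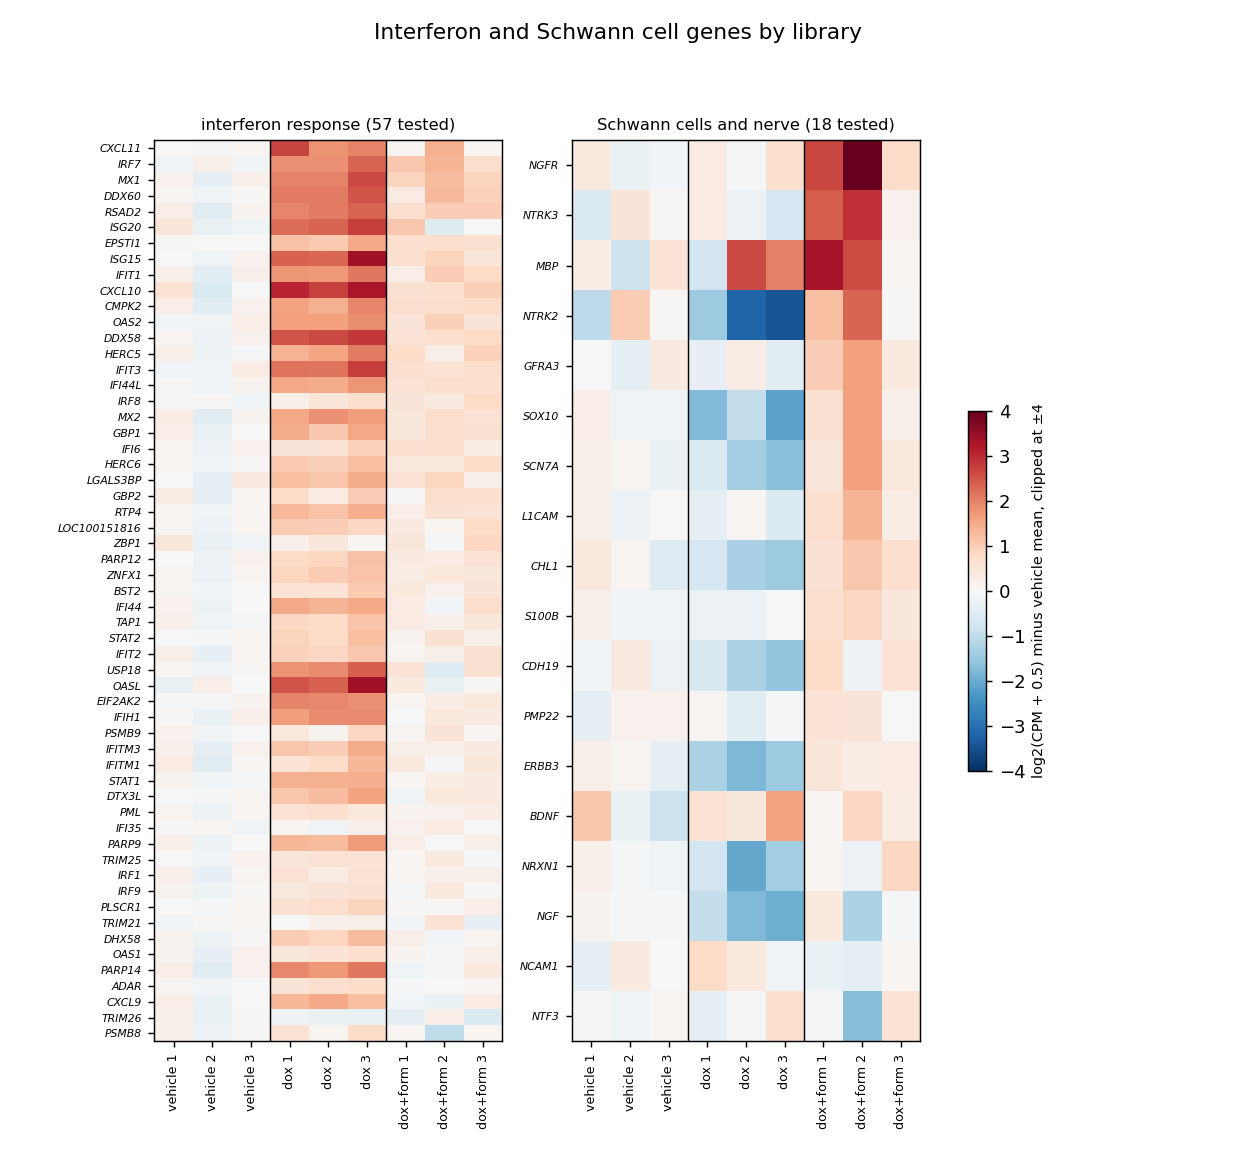
Log2(CPM + 0.5) minus the vehicle mean in each of the 9 libraries (columns) for the 57 interferon response genes and the 18 Schwann cell and nerve genes tested (rows, ordered by fold change against vehicle). Of the interferon genes 50 rose with doxorubicin and 5 with the combination, while NGFR is high in combination replicates 1 and 2 and near vehicle in replicate 3.

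Among stress-responsive transcription factors and glucocorticoid targets, calls went both ways. FKBP5, a cochaperone of the glucocorticoid receptor that this receptor induces, rose from 51.5, 58.1 and 42.5 to 92.7, 99.5 and 93.0 CPM (0.91 ± 0.12, adjusted p = 0.00364). ZBTB16, another glucocorticoid target, rose from 72.0, 95.6 and 69.0 to 132, 159 and 129 CPM (0.83 ± 0.16, adjusted p = 0.0275), with 78.5, 72.6 and 56.1 CPM under doxorubicin. With the falls of PDK4 and TXNIP, which the same receptor is known to regulate, these were the 4 calls among 21 glucocorticoid receptor targets. Of all genes tested, 1.76% were called. KLF10, an early growth response factor induced by TGF-beta, was at 34.1, 28.8 and 30.5 CPM with vehicle, 36.3, 34.9 and 37.5 CPM with doxorubicin and 11.4, 9.23 and 13.5 CPM with the combination (-1.45 ± 0.14 against vehicle, adjusted p = 4.49e-04). With the rise of NR4A3 and the fall of BTG2 it made 3 calls among 29 immediate early genes. NFKBIA, the inhibitor of NF-kappa-B, rose from 46.1, 38.6 and 41.0 to 68.7, 56.8 and 69.9 CPM (0.64 ± 0.13), the 1 call among 43 inflammatory genes, and was at 21.3, 21.3 and 27.4 CPM with doxorubicin. FKBP5 and KLF10 kept their calls in every planned setting. ZBTB16 lost it without vehicle replicate 1 or 3, among others, and NFKBIA without any 1 vehicle library (highest adjusted p = 0.159 and 0.179).

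Protein quality control, antioxidant and matrix lists each held 1 or 2 calls. HSP70.2, a heat shock protein 70, fell from 48.5, 52.1 and 52.6 to 28.9, 34.7 and 30.3 CPM (-0.71 ± 0.11), and with the rise of FKBP5 it made 2 calls among 43 chaperones. PPP1R15A, which restarts translation after stress, fell from 46.6, 41.8 and 44.5 to 28.8, 27.8 and 27.2 CPM (-0.67 ± 0.11), the 1 call among 45 genes of the integrated stress and unfolded protein response. ATG16L1, needed for autophagosome formation, changed by -0.58 ± 0.10, the 1 call among 48 atrophy and autophagy genes. GSTO1, a glutathione transferase, changed by -1.001 ± 0.19 and with MT3 made 2 calls among 44 antioxidant genes. In the matrix lists ADAMTS7, a metalloprotease (-0.96 ± 0.16), and P4HA2, a collagen prolyl hydroxylase subunit (-0.76 ± 0.12), fell among 57 genes, and no collagen of 33 passed. INHA, the inhibin alpha subunit, fell from 64.2, 76.2 and 75.5 to 13.1, 19.7 and 29.8 CPM (-1.79 ± 0.23, adjusted p = 0.00323), the 1 call among 46 genes of TGF-beta signalling, and was at 61.7, 59.9 and 75.9 CPM with doxorubicin. The lipid genes LPIN1 (-0.59 ± 0.13) and PLIN4 (-0.53 ± 0.10) fell among 29 adipocyte and lipid droplet genes, and TNNT1, the slow skeletal troponin T, fell (-1.35 ± 0.28) among 6 skeletal muscle genes. INHA kept its call in every planned setting. The other 9 lost it without at least 1 vehicle library (highest adjusted p from 0.0645 for HSP70.2 to 0.166 for TNNT1), and GSTO1, LPIN1 and TNNT1 also without replicate 2 of the combination (0.0504, 0.0565 and 0.0627). None of 81 cytosolic ribosomal proteins or 41 proteasome subunits passed by edgeR. The ribosomal proteins had a median log2 fold change of -0.186, and for 24 of them all combination libraries lay below all vehicle libraries, as they did for 13% of all genes tested. Over the 29 lists with no call, 820 distinct genes were tested, of which 144 (17.6%) had an unadjusted p under 0.05, against 16.8% of all genes tested.

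**Figure D5:**
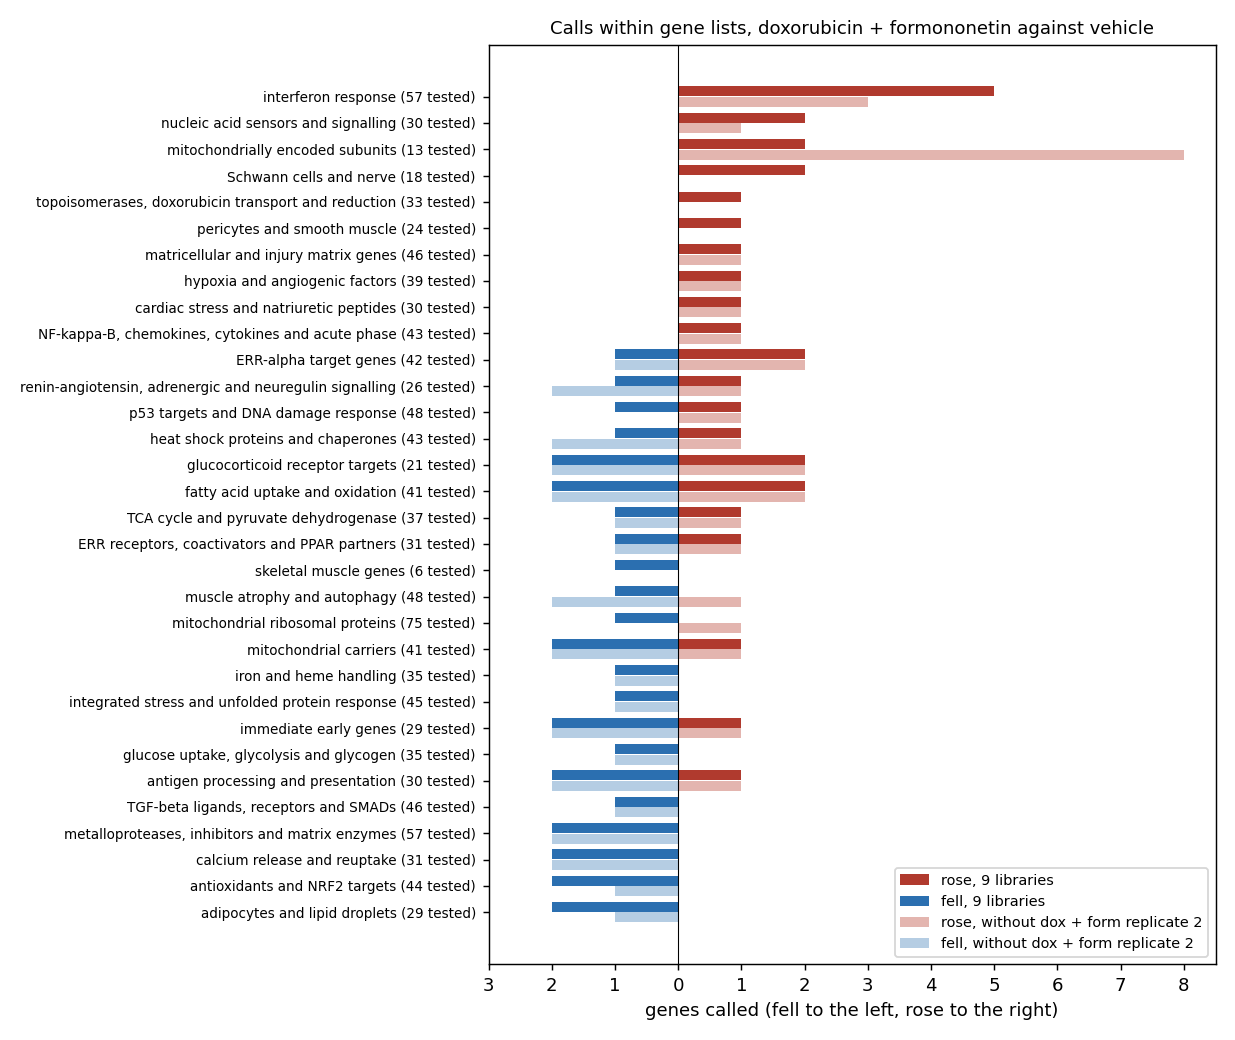
Genes called in each list that held at least 1 call with all 9 libraries, with rises to the right and falls to the left. Dark bars are all 9 libraries, and pale bars are without replicate 2 of the doxorubicin plus formononetin group. Lists with a call only without that library are not drawn. Of 61 lists, 32 held a call with all libraries, the interferon list holding 5 and the Schwann cell list 2, and the 13 mitochondrially encoded subunits went from 2 to 8 calls without that library.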

How the data were processed

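Heart RNA of 9 libraries was analysed. The authors deposited 1 table of raw counts per gene for all samples, and per the labels' protocols column-purified RNA went into SMARTER libraries. How reads were aligned and counted, strand included, is not given in the sources used here. Gene identifiers matched RefSeq (Sscrofa11.1) for 30335 of 30942 genes, with the same start. The deposited gene lengths were not used, because levels are not compared between genes.

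Counts were fitted in R 4.3.3 with edgeR 4.0.16. Genes were filtered with filterByExpr (minimum count 10), libraries were scaled by TMM, and a single negative binomial model described the 9 libraries by 3 group means. Groups, taken from the treatment label, were compared by quasi-likelihood F-tests, with Benjamini-Hochberg adjustment over 14846 genes and calls at an adjusted p under 0.05. Standard errors were derived from F, as the size of the fold change (log2) over its square root. Alternatives used DESeq2 1.42.0 and limma 3.58.1, other scalings, no filter, a replicate block and each library left out. Fitting only the 2 groups without combination replicate 2 was chosen after seeing the data. The procedure was tested on simulated counts. Library totals were of about equal size, but the spread between libraries differed by group. As a coefficient of variation common to all genes it was 13.1% with vehicle, 16.1% with doxorubicin and 31.5% with the combination. Without replicate 2 of the combination it was 18.2%.

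The 61 gene lists, with 2186 of 2262 entries matched, and the members were chosen with earlier results of these data known. Named genes are the 12 largest rises and 12 largest falls among called genes with a symbol, groups that did not overlap and at least 5 CPM in the higher group. Up to 4 members of each list with the smallest p, the receptors and coactivators of the ERR pathway, the estrogen receptors, NPPA, NPPB, CDKN1A, the topoisomerases II, MYL7, MYH6 and MYH7 were added. OAS2, HERC6, SOX10, ACTA2, MYH11, SLA-1 and the loci without a symbol of their own were named after their values were seen. Of these, 2 genes are not reported here, and they are left out of the lists and marker sums. No sequence is shown, since no sequence file was used here.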

Additional observations from a re-analysis of the deposited data

How the results depend on the processing

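Genes called against vehicle numbered 262, 142 of them higher, 120 lower and 141 at least 2-fold. Scaling by total counts alone gave 196 lower calls. Without the filter on low counts there were 488 calls, 267 higher, 221 lower and 259 at least 2-fold. DESeq2 called 748, 398 higher, 350 lower and 300 at least 2-fold, and quality-weighted limma-voom 1378, 708 higher, 670 lower and 367 at least 2-fold, while plain limma-voom called 81 higher and 89 at least 2-fold. Fitting only the 2 groups gave 118 calls, 57 higher, 61 lower and 77 at least 2-fold. A replicate block gave 124 calls, 64 higher, 60 lower and 88 at least 2-fold. Same-numbered libraries did not deviate together (correlations from -0.204 to 0.0271), so the numbers were not taken to pair samples. Leaving out 1 library gave 64 to 465 calls, 29 to 286 higher, 35 to 179 lower and 53 to 302 at least 2-fold. The cause of these shifts was not tested. The remaining settings kept each of these counts within 1.5 times, and the calls for the combination against doxorubicin (2801 to 4436 with 1 library left out) and the difference in mitochondrial share (3.02 to 6.42 points) stayed within 1.5 times and above 0, respectively.

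Directions reversed for 3 uncalled genes. ESR1 (-0.09) was at 0.43 with quality weights, 0.20 without vehicle replicate 3, 0.50 without combination replicate 2 (-1.17 to 0.50 with 1 library left out) and 0.50 with only the 2 groups and without that library. CDKN1A (-0.27) was at 0.23 without vehicle replicate 3 (-0.52 to 0.23 with 1 library left out). TOP2A (0.09) was at -0.0087 with total counts alone, -0.18 by limma-voom, -0.0214 with the replicate block, -0.13 without vehicle replicate 2, and -0.36 and -0.0209 without combination replicates 1 and 3 (-0.36 to 0.52 with 1 library left out). The 69 called genes followed through the settings kept their direction in each. With 3 libraries a group, genes at low counts limit what can be detected.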

Other observations

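Several groups of similar loci that no list held were read after their values were seen, and no test was made of them as groups. Of all genes tested, 0.956% rose and 0.808% fell. Of 5 tested loci annotated as alpha-amylase 3 fell. LOC100153854 stood at 10.6, 10.6 and 12.5 CPM with vehicle, 13.6, 9.54 and 11.9 CPM with doxorubicin and 1.89, 2.12 and 1.51 CPM with doxorubicin plus formononetin (-2.60 ± 0.22, adjusted p = 1.61e-04, edgeR), and LOC100153446 and LOC110258046 fell as well. Of 4 tested loci of glutathione S-transferase mu, enzymes that conjugate foreign compounds, LOC106510200 (8.18, 9.79 and 6.80 CPM with vehicle and 1.52, 2.01 and 1.31 CPM with the combination) and LOC780435 fell. Both tested loci of liver carboxylesterase, an enzyme that cleaves ester drugs, rose. LOC100736962 was at 0.0601, 0.781 and 0.167 CPM with vehicle, 0.0551, 0.533 and 0.0615 CPM with doxorubicin and 16.1, 38.5 and 13.4 CPM with the combination, and LOC110255234 at 2.83, 2.94 and 1.95, 0.221, 0.592 and 0.553 and 11.5, 34.8 and 11.6 CPM. Copies within each family can share reads, so the counts of single copies are uncertain.

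Of 12 tested alpha and beta tubulin genes, the building blocks of microtubules, 4 fell and none rose, with a median log2 fold change of -0.396. This family was also read after its values were seen, and 0.808% of all genes tested fell. TUBB stood at 422, 429.8 and 456 CPM with vehicle, 371, 377 and 381 CPM with doxorubicin and 296, 284 and 342 CPM with the combination (-0.50 ± 0.10, adjusted p = 0.0302). TUBB4B was at 169, 172 and 164 CPM with vehicle and 104, 106 and 125 CPM with the combination (-0.59 ± 0.10), and the alpha tubulin LOC100127131 at 79.8, 91.0 and 101 and 42.8, 39.5 and 36.7 CPM (-1.19 ± 0.11). The fourth was LOC100624785, a beta tubulin.

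The genes of the next sentences were also chosen after their values were seen. Some loci were at 0 in all 3 libraries of 1 group with counts in the other, as ACSM5 was. LOC102167067, an uncharacterized locus, was at 0 counts in all vehicle and doxorubicin libraries, whereas the combination libraries held 62, 147 and 78 counts. The vehicle libraries of LOC100512913 had 66, 136 and 76 counts, its doxorubicin libraries 0, 1 and 0, and its combination libraries 0. MAPK4, an atypical kinase of the MAP kinase family, had no count in any vehicle library, 11, 6 and 1 counts in the doxorubicin libraries, and 51, 58 and 5 in those of the combination. GFAP, an intermediate filament protein of glia, was, like NGFR, high in combination replicates 1 and 2, at 2.40, 2.22 and 1.51 CPM with vehicle and 15.3, 29.1 and 2.36 CPM with the combination (2.93 ± 0.65, adjusted p = 0.048). Combination replicate 3 of GFAP lay below vehicle replicate 1, so its groups overlapped, unlike those of NGFR.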
